A study of Mus musculus with 4 samples.

Results

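Cytosolic ribosomal protein genes were examined in bulk RNA-Seq of mouse nasal process (NP) tissues at E11.5. The members were the genes of the deposited table whose symbol starts with *Rpl* or *Rps* and a number, the stalk genes *Rplp0*, *Rplp1* and *Rplp2*, and *Rpsa*, with the *Rps6k* kinase genes left out, which gave 85 of 13577 listed genes. They comprised 44 genes of the large subunit, 30 of the small subunit, 6 paralogs (*Rpl22l1*, *Rpl36al*, *Rpl39l*, *Rpl7l1*, *Rps27l* and *Rps4l*), 4 pseudogenes (*Rpl14-ps1*, *Rps15a-ps4*, *Rps15a-ps6* and *Rps19-ps3*) and *Rps19bp1*, which encodes a protein that binds Rps19 and is not a ribosomal protein. Of 80 ribosomal proteins on a list compiled by hand, the genes *Rack1*, *Rpl26*, *Rpl30* and *Rps27* were not analysed here, and *Fau*, which encodes a ribosomal protein fused to a ubiquitin-like part, fell outside the symbol rule.

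There were 4 libraries, with 2 controls and 2 ca-*Acvr1(A11)* mutants by their titles (controls and mutants below). Both groups carried *P0-Cre*, a Cre driver active in neural crest cells, and in the mutants Cre turned on a transgene of line A11 that encodes a constitutively active form of ACVR1, a type I BMP receptor, so that it was limited to cells with Cre activity. These titles are contradicted by the genotype field of the sample labels, in which the groups are swapped, so each direction below follows the titles and would turn if that field were right. *Acvr1* was at 21.5 and 23.1 CPM in controls against 24.1 and 12.6 CPM in mutants, so that the groups overlapped. Whether reads from the transgene were counted toward *Acvr1* is not given in the sources used here. The labels do not say whether replicates came from separate embryos, so that p-values measure the spread between these samples, which may be technical. The tests also pool this spread across genes. The library totals were from 1956831 to 2408827 reads, and 1 read was worth between 0.415 and 0.511 CPM (reads on a gene relative to the library total). The 3′ kit gives about one fragment per transcript, so that CPM values were not divided by gene length. In bulk tissue, fewer cells of a type and less RNA per cell cannot be told apart.

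Each ribosome is built from a small subunit, which reads the mRNA, and a large subunit, which joins amino acids, and each subunit holds ribosomal RNA with mostly a single copy of each ribosomal protein. When assembly is disturbed, Rpl5 and Rpl11 bound to 5S ribosomal RNA can bind MDM2, the ubiquitin ligase that marks p53 for destruction, and p53 then accumulates. Facial and neural crest tissues are known to be sensitive to such disturbance, as in Diamond-Blackfan anemia, in which loss of a copy of a ribosomal protein gene can be accompanied by craniofacial anomalies.

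Most vertebrate ribosomal protein mRNAs begin with a C followed by a run of pyrimidines (the TOP tract), through which the mTOR pathway controls their translation. RefSeq promoter sequences were matched for 61 of the 85 members, and the tract was searched on the coding strand as a C within 5 bases of the annotated start followed by at least 4 bases that were each C or T. It was present in 26 of the 55 subunit genes with a promoter (47.3%). The share was 25.4% among 67 mitochondrial ribosomal protein genes and 21.2% among all 27025 genes with a promoter. No match says only that no such tract began within 5 bases of the start used. Where a gene had several promoter sequences, a tract in any of them counted, and a start with a tract was used before others. For 12 of the 61 members the start used was not the outer end of the gene in RefSeq's gene table. A tract at a start without a promoter sequence was not counted. The windows below run from 20 bases before to 30 bases after the RefSeq start in GRCm38.p6, with the tract in capitals. They are shown for *Rpl18*, a member with an unadjusted p under 0.05, for *Rps15a*, whose level differed between replicates, for the paralogs *Rps27l* and *Rpl22l1*, and for *Rpl5* and *Rpl11* of the 5S particle, in which no tract began within 5 bases of the start used. For *Rpl18* and *Rps27l* the start used lay 2604 and 1462 bases downstream of the outer end in the gene table. That table places the start of *Rpl5* 20 bases upstream, at the first base of its window, which is a C followed by pyrimidines.
Rpl18, chr7:45718051-45718100, plus strand: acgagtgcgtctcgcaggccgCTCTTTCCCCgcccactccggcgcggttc
Rps15a, chr7:118116118-118116167, minus strand: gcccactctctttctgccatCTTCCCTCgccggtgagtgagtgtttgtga
Rps27l, chr9:66946066-66946115, plus strand: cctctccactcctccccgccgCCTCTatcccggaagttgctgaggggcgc
Rpl22l1, chr3:28805488-28805537, plus strand: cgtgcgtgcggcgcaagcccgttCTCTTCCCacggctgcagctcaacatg
Rpl5, chr5:107900508-107900557, plus strand: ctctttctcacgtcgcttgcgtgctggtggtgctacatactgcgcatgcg
Rpl11, chr4:136053364-136053413, minus strand: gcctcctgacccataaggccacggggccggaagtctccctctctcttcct
The members with and without a tract had median log2 fold changes in mutants over controls (log2FC) of 0.03 (28 genes) and 0.08 (33 genes), beside 0.03 over all genes tested.

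The members took up 2.86% and 2.93% of all reads in the control libraries and 2.90% and 3.10% in the mutants, or 2.90% ± 0.0530 and 2.998% ± 0.136 (SD, n = 2 each). The groups overlapped in this share. The sum over the large subunit genes was 12981 and 12218 CPM in controls and 13120 and 13435 CPM in mutants, and that over the small subunit genes was 13056 and 14283 against 13128 and 14345 CPM. The ratio of large to small was 0.994 and 0.855 in controls and 0.999 and 0.937 in mutants, so that the control replicates differed more than the group means did. The difference of the group means was 0.07 on the log2 scale, and with 1 library left out it ran from −0.039 (without control replicate 2) to 0.178 (without control replicate 1).

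Levels spread widely among genes whose proteins are needed in near-equal numbers. The mean over the 4 libraries ranged from 1.22 CPM for *Rpl10a* to 2268 CPM for *Rps20*, with a median of 121 CPM. Among the 5 highest members were *Rps20*, *Rpl37*, *Rps26* and *Rpl4*. *Rps20* was at 2109 and 2265 CPM in controls and 2076 and 2622 CPM in mutants. *Rpl37* was at 1711 and 1845 against 1760 and 2036 CPM. For *Rps26* the values were 1337 and 1543 against 1338 and 1518 CPM. In these 3 genes the groups overlapped, with log2FC values between −0.01 and 0.09.

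**Figure D1:**
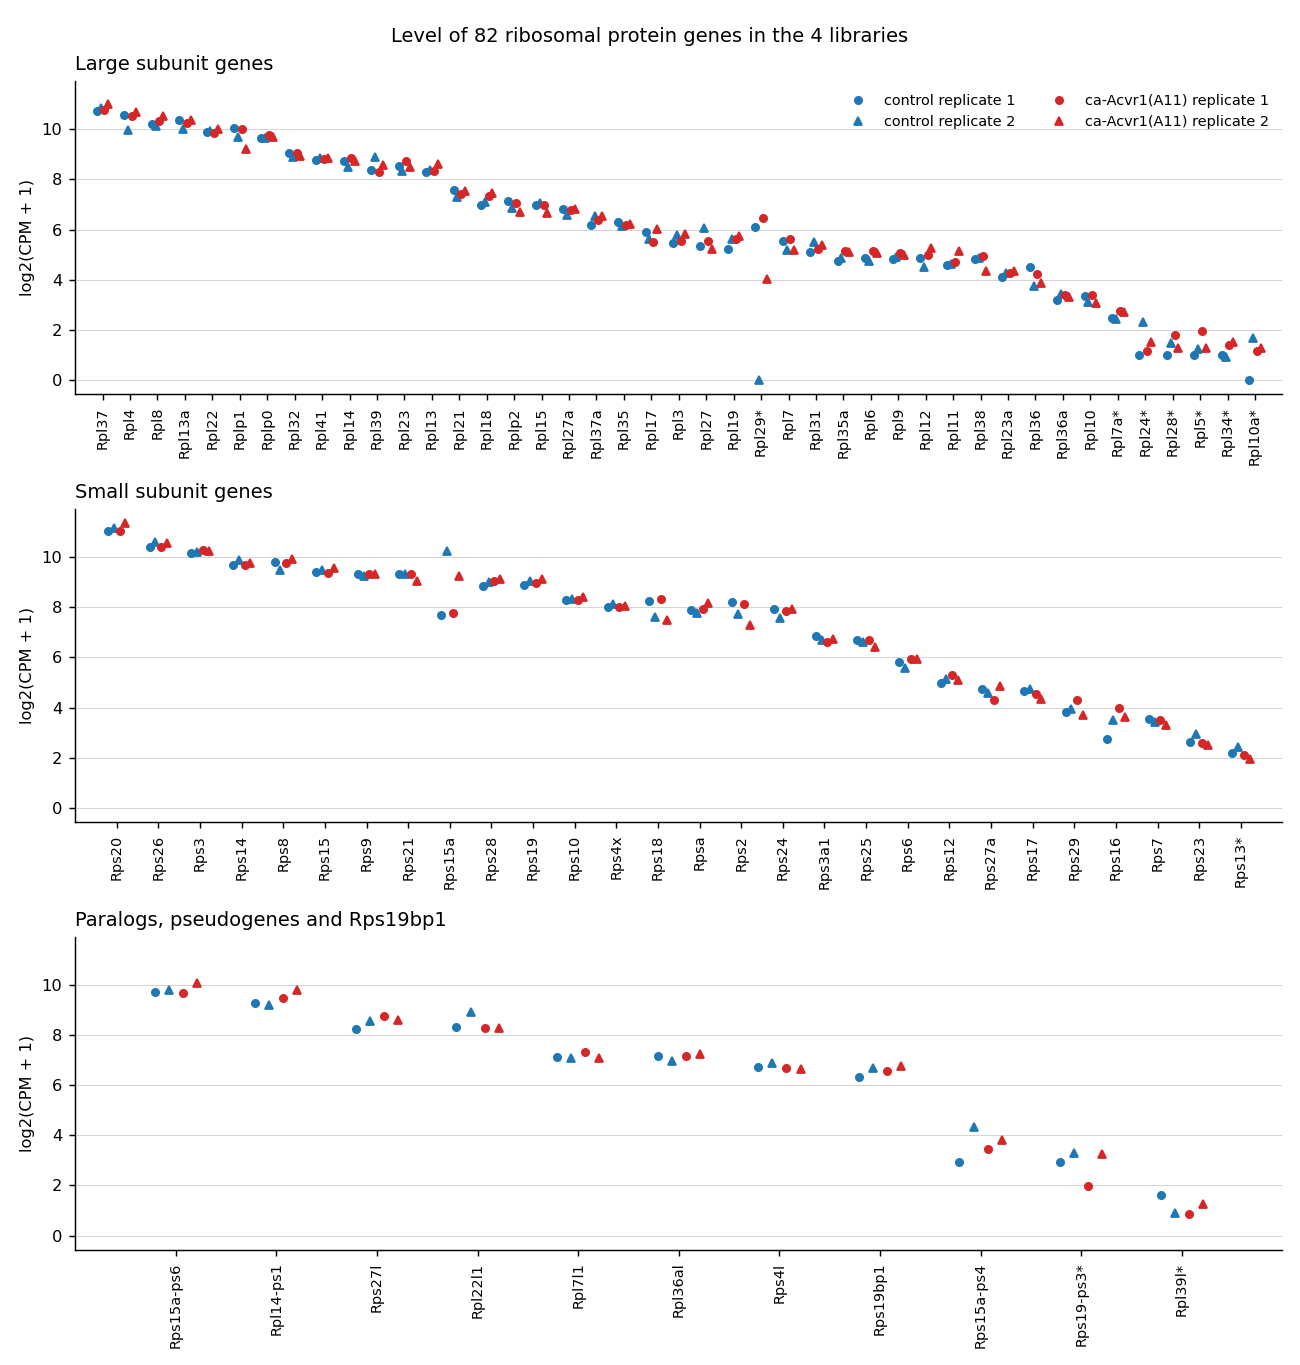
Level of 82 of the 85 genes in the 4 libraries, as log2(CPM + 1), ordered by mean within each panel (blue, control; red, mutants; circles, replicate 1; triangles, replicate 2; asterisk, fewer than 10 reads in some library). The points of most genes lie close together, while *Rpl29* and *Rps15a* spread by replicate number in both groups.

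Fewer than 10 reads in some library were found for 10 members, which are marked here since a value near 1 CPM rests on 2 or 3 reads. They were 7 large subunit genes (*Rpl10a*, *Rpl24*, *Rpl28*, *Rpl29*, *Rpl34*, *Rpl5* and *Rpl7a*), the small subunit gene *Rps13*, the paralog *Rpl39l* and the pseudogene *Rps19-ps3*. *Rpl10a* had 0 and 5 reads in controls and 3 and 3 reads in mutants, and the 0 allows up to 1.53 CPM (3 reads, counting error only). *Rpl34* had 2 and 2 against 4 and 4 reads, and *Rpl28* had 2 and 4 against 6 and 3 reads. *Rpl7a* had from 9 to 14 reads and *Rps13* from 6 to 10. The other 75 members had at least 10 reads in every library, and all 85 passed the filter of a mean above 1 CPM.

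Ribosomal protein genes have many processed copies in the mouse genome, and reads on their 3′ ends can be shared with such copies. For each member, the 300 bases around the stop codon were compared with the other annotated transcripts of GENCODE M21, and a gene elsewhere counted as a copy at 95% identity or more over at least 100 bases. Such copies were found for 81 of the 85 members, with a median of 5 copies. *Rpl21* had 58, *Rpl7a* 51, *Rps2* 41 and *Rpl29* 25, whereas *Rps21*, *Rpl39l* and *Rps19bp1* were among those with none. The number of copies and the mean CPM had a Spearman correlation of −0.39 across the 85 genes, which share the same libraries and are not independent. The 46 members of at least 100 CPM had a median of 3 copies, and the 14 of at least 800 CPM among them 2.5. The 26 members between 10 and 100 CPM had a median of 8, and the 13 members under 10 CPM a median of 5. Among the lowest members, *Rpl5* and *Rpl34*, at 1.67 and 1.36 CPM on average, had 5 copies each. How reads that match several places were counted is not given in the sources used here, and the part of shared reads in these levels was not tested.

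**Figure D2:**
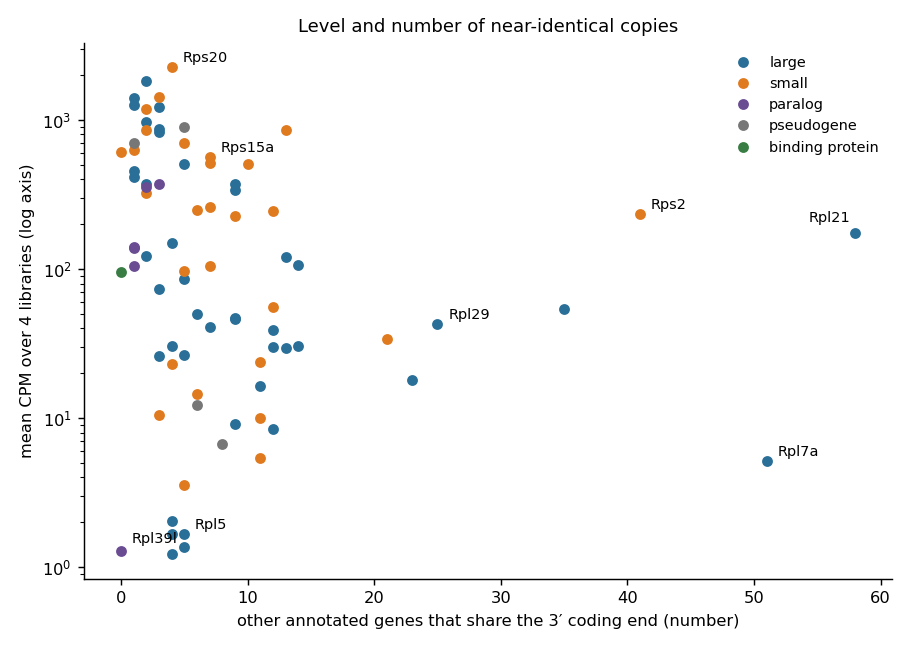
Mean CPM of 82 members over the 4 libraries (log axis) against the number of other annotated genes that share its 3′ coding end, coloured by class. Members above 800 CPM lie at 13 copies or fewer, and members below 10 CPM lie between 0 and 51 copies.

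No ribosomal protein gene passed the test between groups. limma on log2(CPM + 1), with Benjamini-Hochberg adjustment over 12462 genes, called 0 of 85 members at an adjusted p under 0.05, beside 0.899% of all genes tested (38 higher and 74 lower). At an unadjusted p under 0.05, 4 members were found, all higher in mutants, or 4.71%, beside 9.55% of all genes. On reads recovered from the CPM values, edgeR's quasi-likelihood test called 0 of 78 members tested (1.31% of all genes), DESeq2 0 of 79 (0.365%) and limma-voom 0 of 78 (1.24%), with 4, 1 and 5 members at an unadjusted p under 0.05. Both mutant values lay above both control values in 19 members (22.4%, beside 21.9% of all genes), and both lay below in 6 members (7.06%, beside 16.8%). The share of members with separated groups was thus near the background for higher values and under it for lower values.

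The median log2FC was 0.05 over the 85 members, with 55 above and 30 below 0. Over all genes tested it was 0.03, with 6752 above and 5710 below 0. The large subunit genes had a median of 0.10 (32 of 44 above 0, from −0.34 to 2.21) and the small subunit genes a median of 0.01 (16 of 30 above 0, from −0.45 to 0.70). Separated groups were found in 12 of the 44 large subunit genes, all higher, and in 9 of the 30 small subunit genes, 5 higher and 4 lower. Over all genes tested, 21.9% were separated with higher and 16.8% with lower values, and the contrast between subunits was not tested. Among the genes with at least 10 reads in every library, the medians were 0.05 for 37 large and 0.01 for 29 small subunit genes. The sign of the small subunit median turned with the scaling, to −0.02 with TMM factors and −0.03 with upper quartile factors, while that of the large subunit genes stayed above 0 (0.07 and 0.06).

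**Figure D3:**
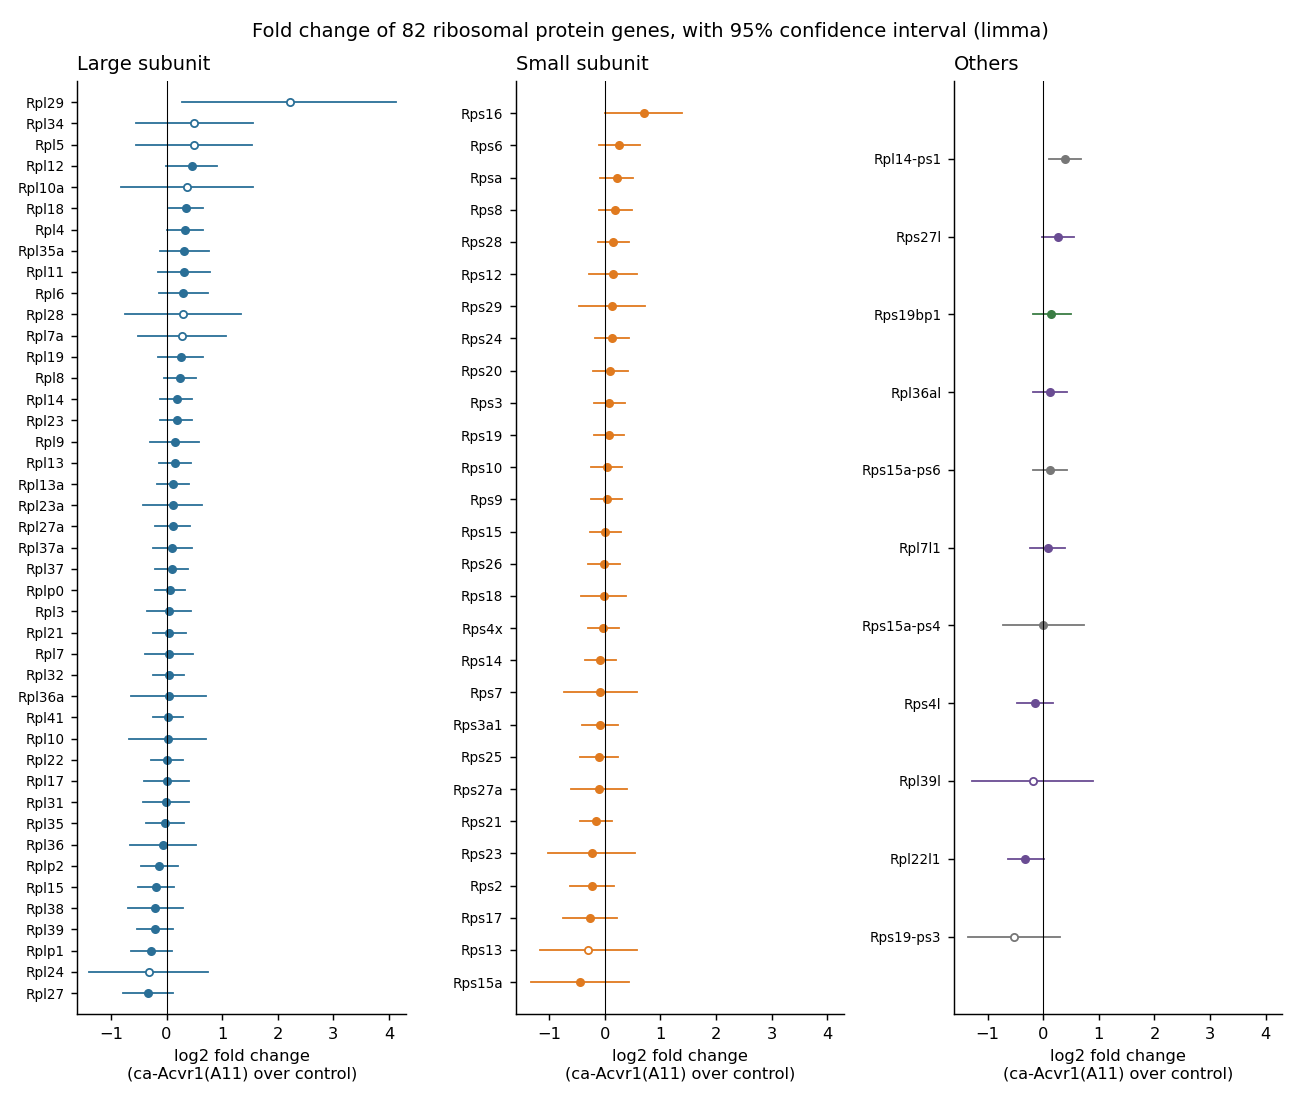
log2FC (mutants over controls) of 82 members with the 95% confidence interval by limma, by class (open circles, fewer than 10 reads in some library). All but 4 intervals cross 0, and that of *Rpl29* reaches from 0.28 to 4.13.

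The intervals show what size of difference these libraries could have hidden. For the 46 members with a mean of at least 100 CPM, the 95% interval reached a median of 0.30 to either side on the log2 scale, or 1.23-fold, and every one of their estimates lay within 0.5 of 0. Over all members, 72 intervals lay within −1 and 1 and 40 within −0.5 and 0.5. For the members with few reads the intervals did not exclude a change of 2-fold, as for *Rpl5*, with limits of −0.55 and 1.54.

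*Rpl5* and *Rpl11* encode the proteins of the 5S particle that binds MDM2. *Rpl11* was at 23.0 and 24.0 CPM in controls and 25.3 and 34.2 CPM in mutants, on 45, 54, 61 and 73 reads. Both mutant values were the higher ones, with a log2FC of 0.31 (SE 0.23, interval −0.16 to 0.79, adjusted p = 0.741 by limma). *Rpl5* was at 1.02 and 1.33 against 2.91 and 1.40 CPM, on 2, 3, 7 and 3 reads, and its log2FC of 0.50 (SE 0.51, adjusted p = 0.843 by limma) rests on these few reads.

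Of 15 genes listed for ribosomal proteins or paralogs reported to bind MDM2, 13 were tested and 0 were called, with a median log2FC of 0.08, 8 above 0 and 5 below. The groups did not overlap for 4 of the 13, *Rpl5*, *Rpl11*, *Rps3* and *Rps27l*, all higher in mutants, beside 21.9% of all genes. For *Rpl5*, control replicate 2 and mutant replicate 2 had 3 reads each, so that this separation rests on the library totals. *Rps3*, a small subunit protein near the mRNA entry, was at 1144 and 1180 in controls and 1232 and 1224 CPM in mutants, a log2FC of 0.08. *Rpl23* was at 369 and 327 against 424 and 363 CPM, with overlapping groups (log2FC 0.18). *Rps14*, *Rps15*, *Rps25*, *Rps7* and *Rps27a*, the last a ubiquitin fusion gene, had log2FC values between −0.11 and 0.01, all with overlapping groups.

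*Rps27l*, a paralog of *Rps27* and a known transcriptional target of p53, was at 302 and 376 CPM in controls and 428 and 386 CPM in mutants. The means were 339 ± 52.7 and 407 ± 29.7 CPM (SD, n = 2 each) and the log2FC was 0.27 (SE 0.14, interval −0.02 to 0.56, adjusted p = 0.571 by limma). The groups were separated, but the gap between them was smaller than the distance between the control libraries. On a list of 20 other p53 targets, 18 were tested and 9 were called, all higher (*Btg2*, *Ccng1*, *Cdkn1a*, *Eda2r*, *Mdm2*, *Perp*, *Phlda3*, *Trp53inp1* and *Zmat3*), with a median log2FC of 1.03. With 1 library left out, between 5 (without mutant replicate 1) and 13 (without control replicate 1) were called. *Cdkn1a*, which encodes the cell cycle inhibitor p21, was at 29.1 and 32.4 against 190 and 164 CPM (log2FC 2.48). *Mdm2* was at 88.4 and 62.6 against 137 and 123 CPM (log2FC 0.79, adjusted p = 0.0153 by limma), and *Trp53*, which encodes p53, at 35.8 and 54.6 against 37.8 and 32.8 CPM (log2FC −0.32, adjusted p = 0.701 by limma). *Mdm4* and *Usp7*, whose products act on p53 and MDM2, had log2FC values of 0.33 and −0.03. Thus 9 p53 targets passed the test in the same libraries in which 0 members did, and no test of a relation between them was made.

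Mouse lines with mutations in *Rpl24*, *Rpl27a*, *Rps6*, *Rps7*, *Rps19* and *Rps20* are known for traits that depend on p53. None of the 6 was called, beside 0.899% of all genes tested, and the median of their log2FC values was 0.08. *Rps6*, whose product is phosphorylated by S6 kinase, was at 54.7 and 46.2 CPM in controls and 60.2 and 60.8 CPM in mutants. Its log2FC was 0.26 (adjusted p = 0.715 by limma). It alone of the 6 had separated groups, beside 21.9% of all genes separated with higher and 16.8% with lower values. *Rps19*, the first gene linked to Diamond-Blackfan anemia, was at 471 and 523 against 497 and 551 CPM (log2FC 0.08), and *Rpl27a* at 110.9 and 95.002 against 110 and 111 CPM (log2FC 0.11). *Rps7* stood between 8.89 and 10.7 CPM in the 4 libraries. *Rpl24* had 2 and 9 against 3 and 4 reads, and its log2FC of −0.32 (interval −1.39 to 0.74) rests on these few reads. Of 20 genes listed for Diamond-Blackfan anemia, 18 were tested, with 10 above and 8 below 0 and a median log2FC of 0.06.

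The stalk of the large subunit, which recruits translation factors, is built from *Rplp0*, *Rplp1* and *Rplp2*. *Rplp0* varied little, at 804 and 810 in controls and 870 and 818 CPM in mutants (log2FC 0.06). *Rplp1* was at 1068 and 818 against 1025 and 586 CPM (log2FC −0.27, adjusted p = 0.705 by limma), and *Rplp2* at 142 and 116 against 132 and 103 CPM (log2FC −0.13). For both P1 and P2 genes, replicate 1 was above replicate 2 in each group, and the groups overlapped.

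The 6 members with the smallest p among those with a positive log2FC were *Rpl14-ps1*, *Rpl18*, *Rpl29*, *Rps16*, *Rpl4* and *Rpl12*. *Rpl14-ps1*, annotated as a pseudogene of *Rpl14*, was at 616 and 591 CPM in controls and 704 and 889 CPM in mutants (log2FC 0.39, SE 0.14, adjusted p = 0.300 by limma). Its reads exceeded those of *Rpl14* itself, at 427 and 358 against 466 and 420 CPM. Since the 3′ ends of both are nearly identical, the split of reads between them is uncertain, and their sum was 1044 and 949 against 1171 and 1309 CPM. The sum, too, was higher in both mutants.

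*Rpl18* was at 124 and 138 in controls and 161 and 174 CPM in mutants, with separated groups (log2FC 0.35, SE 0.15, adjusted p = 0.422 by limma). *Rps16* was at 5.62 and 10.2 against 14.9 and 11.2 CPM, on 11, 23, 36 and 24 reads (log2FC 0.70, adjusted p = 0.514 by limma). *Rpl4* was at 1513 and 999 against 1466 and 1633 CPM, where control replicate 2 stood below the other 3 libraries. *Rpl12* was at 28.1 and 21.8 against 31.1 and 37.4 CPM (log2FC 0.45), with separated groups.

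Among the members with a negative log2FC, those with the smallest p included *Rpl22l1*, *Rpl27*, *Rplp1*, *Rpl39* and *Rps19-ps3*. *Rpl22l1*, whose product can replace Rpl22, was at 315 and 480 in controls and 311 and 313 CPM in mutants (log2FC −0.32, SE 0.16, adjusted p = 0.533 by limma). Its 2 mutant values and control replicate 1 were nearly equal, and control replicate 2 stood apart. *Rpl22* itself was at 949 and 985 against 934 and 1020 CPM (log2FC 0.01). *Rpl39*, which lines the exit tunnel of the large subunit, was at 332 and 477 against 311 and 379 CPM. Control replicate 2 was again the highest library. *Rpl27* was at 39.9 and 65.7 against 45.3 and 36.0 CPM (log2FC −0.34). *Rps19-ps3* had 13 and 20 against 7 and 18 reads.

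The other paralogs had log2FC values between −0.19 and 0.13. *Rpl36al* was at 143 and 122 in controls and 141 and 148 CPM in mutants (log2FC 0.13), and *Rpl7l1* at 139 and 136 against 158 and 134 CPM (log2FC 0.08). *Rps4l* was at 104 and 118 against 101 and 98.3 CPM, with the groups separated by less than the distance between the control libraries (log2FC −0.15). *Rpl39l* had between 2 and 4 reads in each library.

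The values of *Rpl29* and *Rps15a* depended on the replicate number. *Rps15a* was chosen after its values were seen. *Rpl29* (chr9:106428889-106431568 in RefSeq's GRCm38.p6 annotation) was at 67.5 and 0 CPM in controls and 87.6 and 15.4 CPM in mutants, on 132, 0, 211 and 33 reads, and the 0 allows up to 1.33 CPM. Its log2FC of 2.21 (SE 0.94, adjusted p = 0.429 by limma) became 3.83 with a pseudocount of 0.1, 0.67 with edgeR and 0.60 with DESeq2, and both replicates numbered 1 exceeded both numbered 2. Without control replicate 1 the log2FC was 5.25, and without control replicate 2 it was −0.84, with adjusted p = 2.59e-38 and 0.0305 by limma, where the lone control library is assumed to vary like the mutants. Within each replicate number the mutant was above the control, at 87.6 against 67.5 CPM and at 15.4 against 0 CPM. With the number as a block the log2FC of 2.21 had adjusted p = 5.59e-13 by limma. Because limma pools the variance across genes, this p and the SE of 0.94 do not rest on the spread of *Rpl29* alone. *Rps15a* (chr7:118104374-118116147) was at 204 and 1223 against 219 and 611 CPM, the reverse order of replicates, with a log2FC of −0.45 (SE 0.43, adjusted p = 0.826 by limma) that became −1.74 without control replicate 1 and 0.84 without control replicate 2. With its pseudogenes *Rps15a-ps4* and *Rps15a-ps6* added, the sum was 1050 and 2127 in controls and 1047 and 1699 CPM in mutants, so that the order of replicates stayed. *Rps15a-ps6* alone was at 840 and 885 against 818 and 1075 CPM. Which embryos, litters or preparation days the numbers stand for is not given in the sources used here, and the part of shared reads in this pattern was not tested.

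With 1 library left out, the number of members called changed. Without control replicate 1, limma called 6 of 85 members (7.06%), among them *Rpl4*, *Rpl22l1*, *Rpl29*, *Rpl39* and *Rps15a*, beside 3.71% of all genes. Without control replicate 2, limma gave log2FC values of −0.84 for *Rpl29* and 0.84 for *Rps15a*. Without mutant replicate 2 it gave 3.42 and −1.185, so that the direction of each gene differed between these fits. Without mutant replicate 1 it called none, beside 0.754%, with 6 members at an unadjusted p under 0.05. With the replicate number as a block it called *Rpl29* alone, as higher, beside 1.84% of all genes.

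Among genes with a mean of at least 20 CPM, replicates 1 and 2 differed by more than 0.5 on the log2(CPM + 1) scale in the same direction in both groups for 3 of 67 members (4.48%), *Rpl29*, *Rps15a* and *Rps18*, and for 59 of 6568 genes (0.898%). They differed by as much in opposite directions for 0 members and 36 genes. *Rps18* was at 302 and 193 in controls and 316 and 179 CPM in mutants, so that its group means were equal while its replicates were not (log2FC −0.02). *Rps2* was at 291 and 209 against 281 and 156 CPM. Both of these small subunit genes were higher in the replicates numbered 1.

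**Figure D4:**
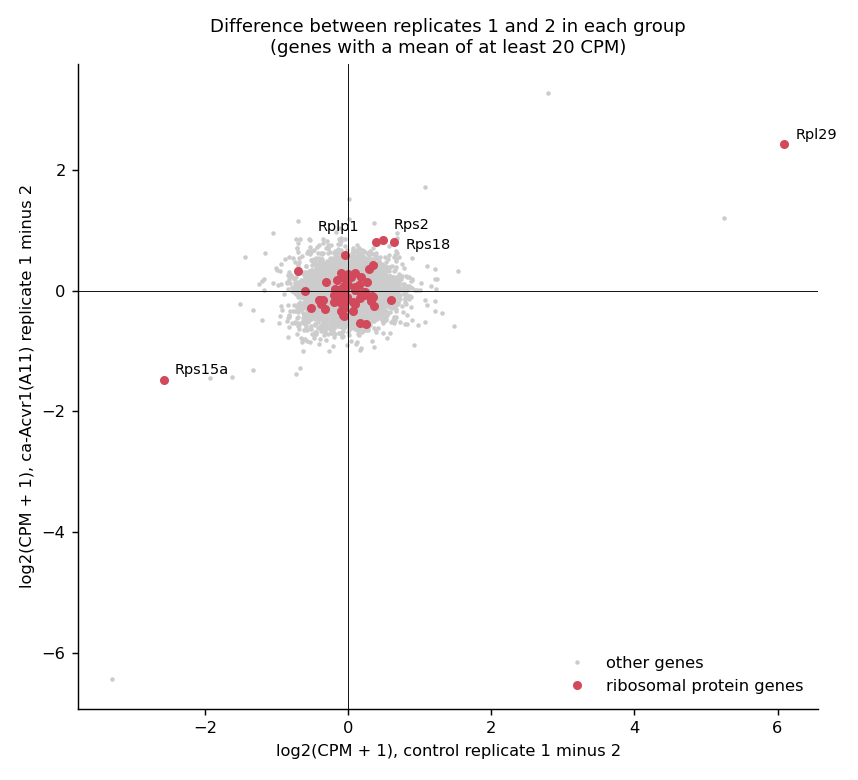
Difference between replicates 1 and 2 on the log2(CPM + 1) scale, in controls (horizontal axis) and mutants (vertical axis), for genes with a mean of at least 20 CPM (red, 64 members; grey, other genes). *Rpl29* lies far to the upper right and *Rps15a* to the lower left, away from most other members.

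The genes that make ribosomes were set beside the genes whose proteins form them. Of 108 ribosome biogenesis factors listed, 103 were tested, and 89 of these had a log2FC above 0, with a median of 0.17 against 0.05 for the members and 0.03 for all genes. With all 4 libraries, none was called by limma without a replicate block, edgeR, DESeq2 or limma-voom, and 3 were called by limma with the replicate number as a block. In the fit without the block, 21 had an unadjusted p under 0.05 in limma, all higher, beside 676 of 12462 genes tested that were higher at that p. The groups were separated with higher values in 56 of the 103, beside 21.9% of all genes. Without control replicate 1, 11 of them were called. The smallest p were those of *Ddx21*, a helicase of ribosomal RNA processing, at 409 and 372 in controls and 556 and 547 CPM in mutants (log2FC 0.50, adjusted p = 0.0812 by limma), *Wdr46* (0.82) and *Mrto4* (0.56). On a list of RNA polymerase I genes and their regulators, which make ribosomal RNA, 18 were tested and 0 called, with a median of 0.15. Its smallest p were those of *Nolc1* (log2FC 0.39), *Cd3eap* (0.39) and *Mycn* (0.31). Thus 14 of 18 of these genes, 55 of 85 members and 6752 of 12462 genes tested lay above 0, and the difference between the lists was not tested.

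Translation factors whose mRNAs carry a TOP tract had a median log2FC of 0.07 over 19 genes, with 0 called. *Eef2*, the factor that moves the ribosome along, was at 1277 and 1139 against 1375 and 1562 CPM (log2FC 0.28, adjusted p = 0.548 by limma), and *Pabpc1* and *Eif3a* had log2FC values of 0.19 and 0.21. *Fau*, on this list but outside the symbol rule, was at 3.07 and 1.33 against 2.49 and 0.468 CPM. The 76 mitochondrial ribosomal protein genes, which serve the ribosome of another compartment, had a median of 0.08 with 48 above 0 and 0 called, and with 1 library left out the median ran from −0.016 (without mutant replicate 2) to 0.168 (without mutant replicate 1), with 2 called without control replicate 2. Their smallest p were those of *Mrps28*, *Mrpl49* and *Mrpl19*, with log2FC values of 0.77, 0.50 and 0.44.

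**Figure D5:**
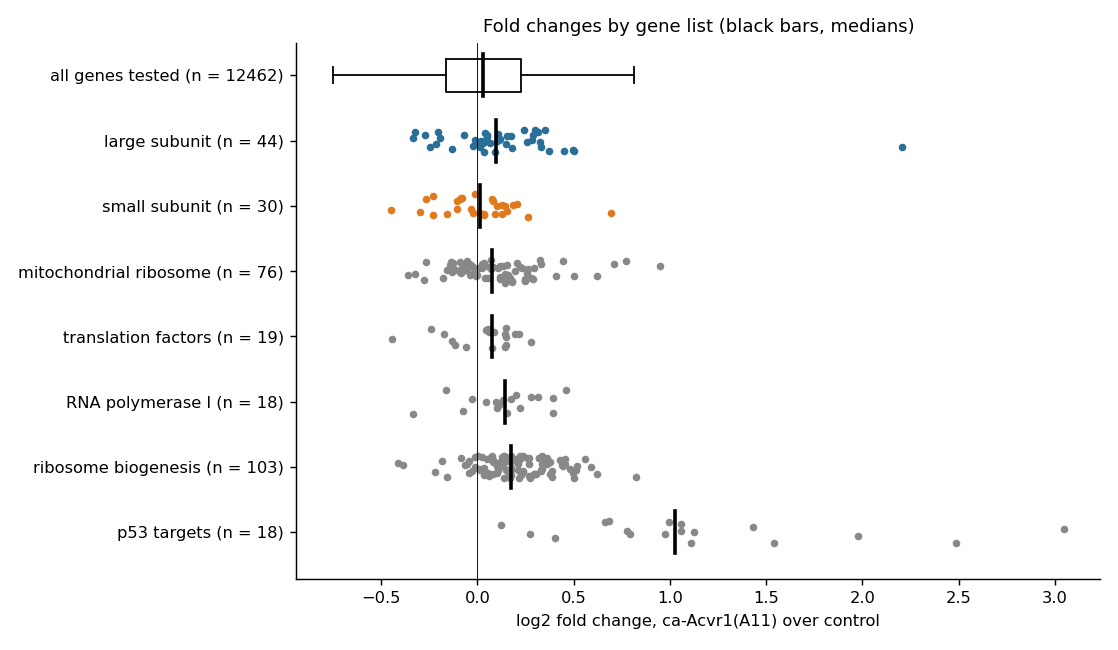
log2FC values (mutants over controls) of the genes in 7 lists as points, with black bars at the medians, and of all genes tested as a box (quartiles, with whiskers). The 2 subunits are centred near the box, with medians of 0.10 and 0.01, and the p53 targets lie to the right, with a median of 1.03.

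Markers of the cell types in the tissue differed between the same libraries. The 10 mesenchyme markers summed to 1277 and 1685 CPM in controls and 704 and 774 CPM in mutants, and 9 of the 10 were called lower (one of them, *Pdgfra*, has deposited values that are not whole reads). The 8 epithelium markers summed to 249 and 235 against 400 and 366 CPM, with 2 called higher, and the 7 macrophage markers to 46.0 and 44.4 against 71.0 and 107 CPM, with 1 called higher. The 7 neural markers summed to 1067 and 1081 against 1341 and 1479 CPM, with 0 called and 4 at an unadjusted p under 0.05 in limma. Of 10 erythroid markers, 6 were analysed, summing to 7028 and 8483 against 6710 and 7213 CPM, and the 6 endothelial markers summed to 160 and 167 against 166 and 154 CPM. Both lists had medians near 0 (log2FC −0.12 and −0.10), with 0 called and 0 at an unadjusted p under 0.05 by limma, and no marker analysed was at 0 in all libraries. The sums over the large subunit genes did not overlap between the groups, those over the small subunit genes did, and the part of the cell types in the members' values was not tested.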

How the data were processed

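RNA from E11.5 NP tissues was extracted with TRIzol, made into QuantSeq 3′ libraries and sequenced on an Illumina HiSeq 2000 by the authors, who deposited CPM values for 13577 genes. The submitters' processing notes name the build mm10, STAR, featureCounts 1.6.4 and DESeq2, without their settings. The treatment of reads that match several places is not given in the sources used here. Of the deposited values, 99.921% were whole reads within 0.02 reads, 43 values in 22 genes were not, and 0 of these were in members. The table's 33470 lines with no gene were left out, and 0 columns of values were unused.

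Fold changes were estimated for genes with a mean above 1 CPM on log2(CPM + 1), with a pseudocount of 1 that understates changes of low genes, by limma 3.58.1 with a mean-variance trend over all 4 libraries and Benjamini-Hochberg adjustment at 0.05, in R 4.3.3. edgeR 4.0.16 (quasi-likelihood test), DESeq2 1.42.0 and limma-voom were run on the recovered reads as alternatives, beside other scalings, filters and omitted libraries. On simulated data for this comparison with 12388 genes, limma called 139 of 200 changed genes (69.5%) and 4 unchanged ones. The simulated data had a common dispersion (spread between replicates) of 0.0116. The percentage called for members, at their reads, spread and small fold changes, was not tested. Copies were found with blastn 2.17.0, the rest was computed with Python 3.11.15, pandas 2.3.3, numpy 2.4.6, scipy 1.17.1 and matplotlib 3.10.9. The windows for copies and tracts and the 20 CPM limit were chosen after values had been seen.

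The members and gene lists were chosen with earlier results of these data known. Genes named were members called, the 6 with the smallest p in each direction, all members of the 5S particle, stalk, MDM2 and mouse mutant lists, the paralogs, the 5 highest members, those with fewer than 10 reads in any library, the p53 core genes, and in each other list the genes called and the 3 with the smallest p. Others named were chosen after their values were seen. Some genes are not reported here by name or drawn singly, and counts include them.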

Additional observations from a re-analysis of the deposited data

How the results depend on the processing

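With 2 libraries a group, the spread between replicates and the low reads of 10 members set what could be seen, and 1 library decides several values. Of 616 fold changes of named genes under the alternatives, 577 kept their direction and their side of the threshold, 8 passed the threshold in the direction given and 31 turned, and the cause was not tested. With TMM, RLE and upper quartile scaling, the median log2 fold change was 0.019, 0.020 and 0.009 over the members, 0.067, 0.068 and 0.057 over the large subunit genes and −0.018, −0.017 and −0.028 over the small subunit genes. The large subunit median was 0.049 with at least 10 reads in every library, 0.047 with edgeR, 0.063 with DESeq2 and 0.046 with limma-voom, and the small subunit median was −0.016 with DESeq2. DESeq2 called 8 genes higher and 31 lower over the whole table and 4 p53 targets, and the median of the biogenesis factors was 0.134 with upper quartile scaling. *Rps15*, at 0.01, turned with these scalings and tests, to −0.015 (TMM), −0.014 (RLE), −0.026 (upper quartile), −0.001 (edgeR), −0.013 (DESeq2) and −0.004 (limma-voom). With 1 library left out, the whole table gave from 32 to 241 genes higher and 56 to 221 lower (241 and 221 without control replicate 1), and from 0 to 6 members, 5 to 13 p53 targets, 0 to 11 biogenesis factors and 0 to 2 mitochondrial ribosomal protein genes were called. The medians then ranged from 0.051 to 0.090 over the members, 0.004 to 0.066 over the small subunit genes, 0.736 to 1.195 over the p53 targets, 0.148 to 0.234 over the biogenesis factors and −0.016 to 0.168 over the mitochondrial ribosomal protein genes. Under the same omissions the log2 fold changes that turned ranged from −0.84 to 5.25 for *Rpl29*, −1.74 to 0.84 for *Rps15a*, −0.47 to 1.22 for *Rpl10a*, −0.98 to 0.33 for *Rpl24*, −0.69 to 0.018 for *Rpl27*, −0.005 to 0.22 for *Rpl27a*, −0.013 to 0.196 for *Rpl37*, −0.47 to 0.047 for *Rpl39*, −0.54 to 0.15 for *Rpl39l*, −0.038 to 0.198 for *Rpl7l1*, −0.67 to 0.13 for *Rplp1*, −0.31 to 0.048 for *Rplp2*, −0.18 to 0.022 for *Rps14*, −0.088 to 0.118 for *Rps15*, −1.15 to 0.12 for *Rps19-ps3*, −0.074 to 0.262 for *Rps20*, −0.25 to 0.04 for *Rps25*, −0.11 to 0.092 for *Rps26*, −0.38 to 0.16 for *Rps27a* and −0.18 to 0.018 for *Rps7*. With 1 library left, a group is assumed to vary like the other group. The replicate numbers name 2 pairs only and no label ties them to a litter or day. The differences between replicates 1 and 2 in the 2 groups correlated across genes with r = 0.0671 over 12462 genes, 0.148 over the 6568 genes of at least 20 CPM, and 0.79 over 67 members of at least 20 CPM, 0.32 without *Rpl29* and *Rps15a*. With the replicate number as a block, 97 genes were higher and 132 lower, 1 member (*Rpl29*), 3 biogenesis factors and 1 mitochondrial ribosomal protein gene were called, and no other member's call changed. The alternatives for the lists outside the members were chosen after seeing the data.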
